A study of Mus musculus with 24 samples.

Results

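The genes described here encode the subunits that bring a phosphatase to glycogen and the enzymes that build and break glycogen down, measured in left ventricles of mice after ischemia. They are 9 of the 18820 genes tested on the arrays: the targeting subunits Ppp1r3a, Ppp1r3b, Ppp1r3c and Ppp1r3d, glycogen synthase Gys1, the branching enzyme Gbe1, the phosphorylases Pygm and Pygb, and Pgm2. Pgm2 belongs to the phosphoglucomutase family but is not its main enzyme of glycogen breakdown. The genes were listed by name, and each was read from the probe set paired with its symbol alone. Each of the 9 had 1 such probe set, so no choice between probe sets had to be made, and no filter on low values removed any of them. Gys1 has 1 more probe set that is also paired with Ruvbl2, which was not used.

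Each array held RNA from the left ventricle of 1 adult male mouse, with 24 arrays in 8 groups of 3. Wildtype mice carried the strain label BL6C57. Per2-/- mice, labelled Per2 KO under the same strain label, are described in the study as deficient in the clock gene Per2. The deletion is in the whole body, so that heart muscle and every other cell in the sample carried it. All animals were anesthetized and catheterized. The controls of each genotype are titled untreated in the labels and described there as sham operated, and they are called sham hearts here. For I30 the left coronary artery was closed for 30 minutes and the heart was taken before any reperfusion. For I30R60 the same 30 minutes of closure were followed by 60 minutes with the artery open. For IP0, ischemic preconditioning, the artery was closed for 5 minutes and opened for 5 minutes, 4 times in a row. The study asked how Per2 shapes cardiac metabolism during ischemia, and it singled out Ppp1r3c from these same arrays, so the Ppp1r3c values below are no independent evidence for that choice.

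Glycogen is the glucose store of muscle. Heart muscle draws on it when the supply of oxygen stops, because glucose released from it can be split without oxygen. Glycogen synthase adds glucose to the chain, branching enzyme makes the branches, phosphorylase releases glucose 1-phosphate, and phosphoglucomutase converts that product to glucose 6-phosphate, the entry to glycolysis. Protein phosphatase 1 removes phosphate from synthase, which switches it on, and from phosphorylase, which switches it off. The Ppp1r3 proteins are regulatory subunits that hold the phosphatase on the glycogen particle, and each tissue uses its own set of them.

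Values are log2 intensities, which the authors normalized by RMA. A difference of 1 on this scale is a doubling of the signal. Differences were tested with limma over all 24 arrays with Benjamini-Hochberg adjustment over all genes, and a difference was called at an adjusted p under 0.05. The 3 treatments of a genotype were compared with the same 3 sham hearts, so their differences share those arrays. The mean of 7 heart muscle genes, among them Tnni3 and Ttn, stayed between 12.63 and 12.77 over the 24 arrays, and that of 9 skeletal muscle genes between 3.00 and 3.34. Myl7, a myosin light chain of the atrium, was high in Per2-/- sham replicate 3 (11.2), Per2-/- IP0 replicate 3 (9.12) and wildtype sham replicates 1 (8.24) and 2 (5.22). Lung epithelium genes were raised in the wildtype I30 arrays, with a list mean of 3.25 to 4.29 against 2.44 to 2.60 in wildtype sham arrays and 4 of 7 genes called. The probe set of Per2 itself averaged 5.79 in the 3 wildtype sham hearts (SD 0.41) and 5.66 in the 3 Per2-/- sham hearts (SD 0.03, adjusted p = 0.966). Its Per2-/- minus wildtype difference was -1.12 with I30 (adjusted p = 0.0643), 0.37 with IP0 (adjusted p = 0.948), -0.31 with I30R60 (adjusted p = 0.813) and -0.30 averaged over the treatments (unadjusted p = 0.0383, adjusted p = 0.357). None of these passed, and it is not known here whether the probes lie in the deleted part, so the probe set does not settle the genotype labels. The samples are bulk tissue, in which fewer cells of a type and less RNA per cell cannot be told apart.

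Stretches of the promoters of 3 members are shown because the results turn on Ppp1r3c and Pgm2, and because Ppp1r3d is the other subunit gene whose promoter holds the same E-box. The sequences are from RefSeq on build GRCm38.p6, which lists promoters for 8 of the 9 genes; Ppp1r3b had no entry. Each line is the 250 bases before the transcription start on the strand of the gene, 5′ to 3′, with matches to the motifs below in capitals. A match on the opposite strand reads as its reverse complement, CACGT for ACGTG and CACGC for GCGTG. The stretch of Ppp1r3c is chr19:36736605-36736854 on the minus strand, that of Ppp1r3d is chr2:178414464-178414713 on the minus strand, and that of Pgm2 is chr5:64092689-64092938 on the plus strand.
Ppp1r3c: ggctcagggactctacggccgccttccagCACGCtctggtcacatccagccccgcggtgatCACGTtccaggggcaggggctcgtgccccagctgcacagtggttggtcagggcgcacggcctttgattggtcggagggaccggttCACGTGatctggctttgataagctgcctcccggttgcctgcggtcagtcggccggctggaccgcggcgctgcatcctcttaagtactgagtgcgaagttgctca
Ppp1r3d: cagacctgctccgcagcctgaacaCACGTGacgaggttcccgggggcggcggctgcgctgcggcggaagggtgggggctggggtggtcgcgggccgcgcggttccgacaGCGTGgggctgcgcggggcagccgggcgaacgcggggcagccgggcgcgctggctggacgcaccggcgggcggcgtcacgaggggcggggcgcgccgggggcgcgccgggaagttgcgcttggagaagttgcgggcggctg
Pgm2: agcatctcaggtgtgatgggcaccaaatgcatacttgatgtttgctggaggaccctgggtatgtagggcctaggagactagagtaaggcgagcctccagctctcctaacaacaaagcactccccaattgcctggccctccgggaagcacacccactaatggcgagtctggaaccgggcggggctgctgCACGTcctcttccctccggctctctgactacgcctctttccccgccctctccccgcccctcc
The windows searched ran from 250 bases before to 50 bases after the start, on both strands. The motifs were the E-box CACGTG, which clock proteins and many others can bind, the cores ACGTG and GCGTG of elements bound by hypoxia-inducible factors, the AP-1 motif TGANTCA and the cAMP response element TGACGTCA. The E-box was found once each in Ppp1r3c (104 bases before the start) and Ppp1r3d (226 bases before the start), in 2 of the 8 promoters, against 7.15% of all 32851 promoter windows. Every E-box contains ACGTG on both strands. Outside it, ACGTG was found on the opposite strand of Ppp1r3c at 189 bases and of Pgm2 at 62 bases before the start, and it also occurred in Pygm and Pygb. The share of all windows with ACGTG was 19.6%, and that with GCGTG, which stood in Ppp1r3c, Ppp1r3d, Pygm and Pygb, was 32.4%. Neither TGANTCA nor TGACGTCA was found in any of the 8 windows, against 7.81% and 1.79% of all windows. A match in these letters is a description and does not show that a factor binds there.

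Ppp1r3c and Pgm2 varied most among the 9 genes. Their group means spanned 1.34 and 1.31 log2 units, 5.95 and 5.00 times the pooled SD within groups. For the other 7 genes the group means spanned 0.15 (Gbe1) to 0.49 (Ppp1r3b) log2 units. The phosphorylases were the steadiest, with a pooled SD within groups of 0.05 for Pygm and 0.06 for Pygb, whereas that of Pgm2 was 0.26 and that of Ppp1r3d was 0.24.

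**Figure D1:**
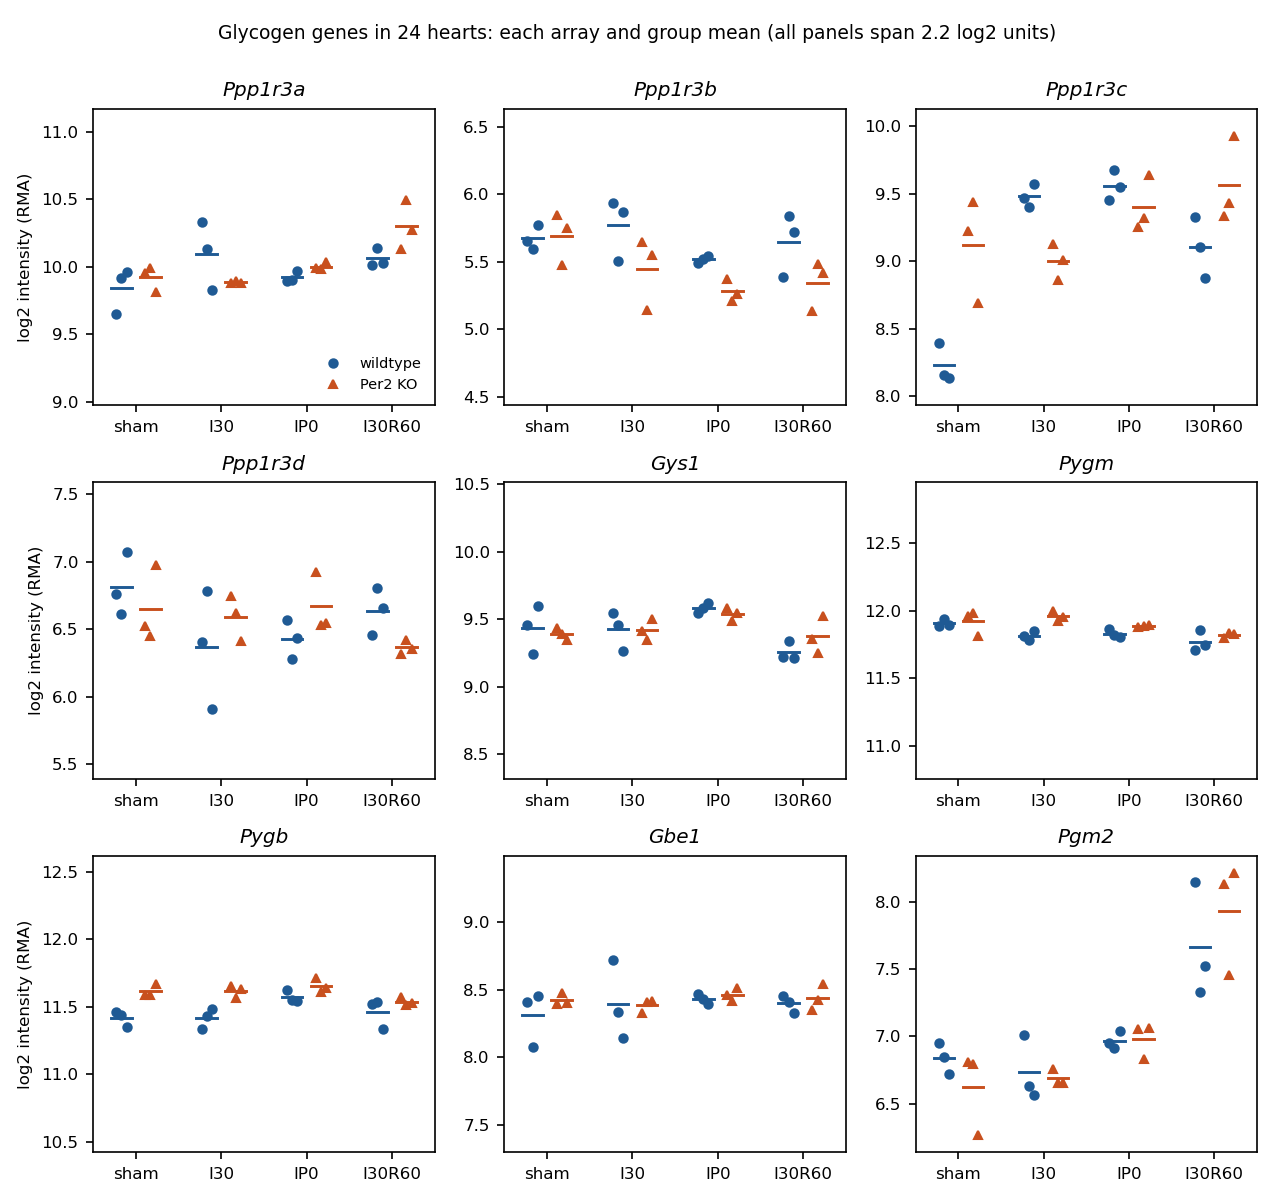
Log2 intensity (RMA) of the 9 genes in each of the 24 arrays, 1 panel per gene each spanning the same number of log2 units, with treatments along the horizontal axis and genotypes by colour and shape; points are single hearts and short lines are group means. The 3 wildtype sham hearts lie below all others for Ppp1r3c (8.13 to 8.40), and the I30R60 hearts of both genotypes lie above all others for Pgm2 (7.33 to 8.21). How many of all genes have either order was not counted.

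Ppp1r3c, also called protein targeting to glycogen, binds synthase and phosphorylase as well as the phosphatase, and the gene lies on chromosome 19 from 36731731 to 36736604. It was lowest in wildtype sham hearts, at 8.40, 8.16 and 8.13, and these were the 3 lowest values of the 24 arrays. How many of all genes had this order was not counted. Wildtype I30 hearts measured 9.47, 9.40 and 9.57, wildtype IP0 hearts 9.45, 9.68 and 9.55, and wildtype I30R60 hearts 9.33, 9.10 and 8.88. Each treated wildtype heart was thus above each wildtype sham heart. In Per2-/- mice the sham hearts were already at 9.23, 9.44 and 8.69. Per2-/- I30 hearts measured 9.13, 8.86 and 9.01, IP0 hearts 9.25, 9.32 and 9.64, and I30R60 hearts 9.33, 9.43 and 9.93. In the order of the 8 group means, the step from wildtype sham (8.23, SD 0.15) to the next group, Per2-/- I30 (8.999, SD 0.13), was 0.77 and had no overlap. The share of all genes without overlap between those groups was not counted. Each of the 6 later steps, from Per2-/- I30 up to Per2-/- I30R60 (9.56, SD 0.32), was smaller than 0.29, and neighbouring groups overlapped.

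In wildtype hearts Ppp1r3c rose by 1.25 (SE 0.17) with I30, which is 2.38-fold, and the adjusted p was 0.00206. It rose by 1.33 (SE 0.17) with IP0, which is 2.51-fold, with an adjusted p of 0.000326. With I30R60 it rose by 0.87 (SE 0.17), which is 1.83-fold, with an adjusted p of 0.00649. The I30R60 call rests on wildtype I30R60 replicate 1, without which the rise was 0.76 and the adjusted p 0.0533. The list mean of the lung genes, raised in the wildtype I30 arrays, was 2.48 to 2.54 in the wildtype IP0 arrays, and their part in the I30 rise of Ppp1r3c was not tested. Each of the 24 leave-one-out fits kept the calls for I30 and IP0.

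Ppp1r3c was the 1 of 9 members called with I30 in wildtype hearts, where 2.39% of all genes were called, and the 1 of 9 called with IP0, where 0.85% were called. With I30R60, Ppp1r3c and Pgm2 were called, 2 of 9 against 2.47% of all genes. The count over all genes with I30 depended on the scaling: 449 genes were called with the deposited values, 939 after centring each array on its median and 83 after quantile normalization. All 3 arrays of Ppp1r3c lay above all 3 sham arrays with each treatment, which 11.9%, 9.8% and 8.04% of all genes did with I30, IP0 and I30R60.

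In Per2-/- hearts no change of Ppp1r3c was called. The difference from Per2-/- sham hearts was -0.12 with I30 (95% CI -0.48 to 0.24, adjusted p = 0.914), 0.29 with IP0 (CI -0.08 to 0.65, adjusted p = 0.717) and 0.45 with I30R60 (CI 0.08 to 0.81, adjusted p = 0.165). The I30 interval leaves out the wildtype rise of 1.25. Tested directly, the Per2-/- change with I30 minus the wildtype change was -1.37 (SE 0.24), with an unadjusted p of 1.75e-05 and an adjusted p of 0.11, which did not pass. The difference between the genotypes in the change was -1.04 (SE 0.24, adjusted p = 0.672) with IP0 and -0.43 (SE 0.24, adjusted p = 0.942) with I30R60. For I30 it passed without Per2-/- sham replicate 3, the array of highest Myl7 (-1.59, adjusted p = 0.0168), and with array weights (-1.44, adjusted p = 0.0357), but not without the 4 arrays of highest Myl7 (-1.68, adjusted p = 0.0743). No gene of 18820 passed in any of these 3 interactions (0.0% called), although 1336, 905 and 1034 genes had an unadjusted limma p under 0.05 with I30, IP0 and I30R60.

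**Figure D2:**
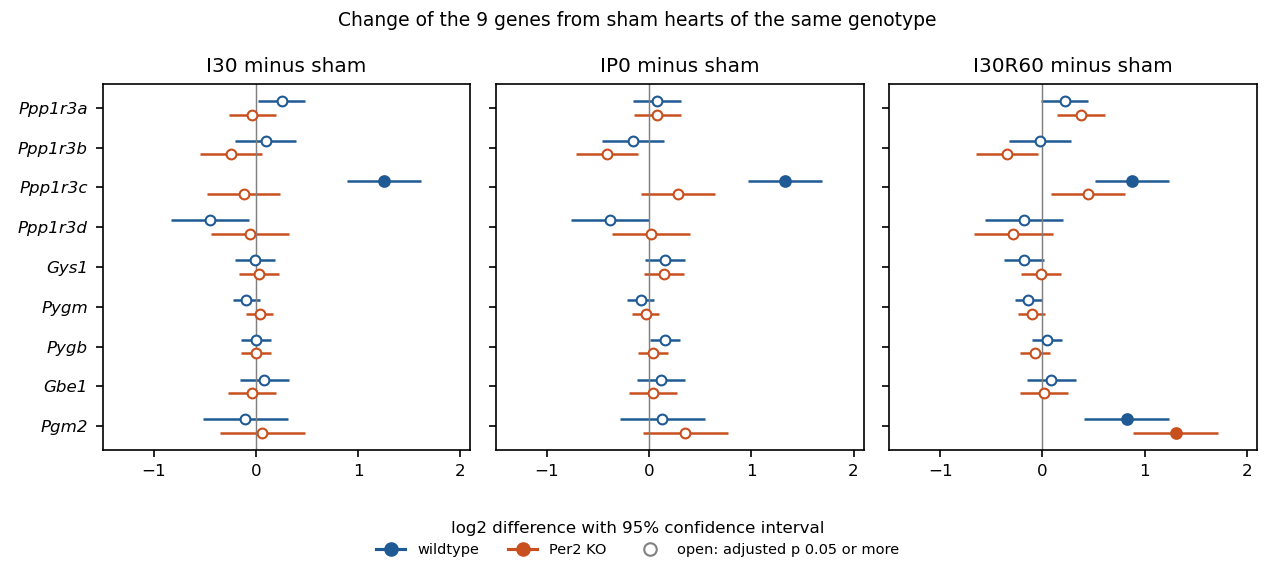
Log2 change against sham hearts (horizontal axis) for the 9 genes with I30, IP0 and I30R60, 1 panel per treatment, in wildtype and Per2-/- (Per2 KO) hearts; points are limma estimates from 3 hearts a group, bars are 95% confidence intervals and filled points mark an adjusted p under 0.05. Ppp1r3c is filled in wildtype hearts with all 3 treatments (1.25, 1.33 and 0.87) and open in Per2-/- hearts, while Pgm2 is filled in both genotypes with I30R60 alone.

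Between the genotypes, Ppp1r3c was higher in Per2-/- than in wildtype sham hearts by 0.89 (SE 0.17, 1.85-fold, adjusted p = 0.0243), and each Per2-/- sham heart was above each wildtype one, which held for 8.35% of all genes. Ppp1r3c was the 1 of 9 members called in sham hearts, where 0.266% of all genes were called. This comparison uses the same wildtype sham hearts as the rises in wildtype hearts and the differences between the genotypes in the change. These results are thus not independent of each other. Leaving out any 1 of the wildtype sham hearts, or the first or the second Per2-/- sham heart, ended the call, with differences of 0.73 to 0.97 and adjusted p of 0.0528 to 0.189. Without Per2-/- sham replicate 3 it was 1.103, with an adjusted p of 0.00362. Without the 4 arrays of highest Myl7, of which 3 are sham arrays, it was 1.201 and the adjusted p 0.0537. In the other treatments the direction varied: the Per2-/- minus wildtype difference was -0.48 with I30 (adjusted p = 0.238), -0.15 with IP0 (adjusted p = 0.973) and 0.46 with I30R60 (adjusted p = 0.455), and no member was called there, where 0.664%, 0.0797% and 0.175% of all genes were called. In those 3 comparisons 2310, 1095 and 1568 genes had an unadjusted limma p under 0.05. From I30 to I30R60, Ppp1r3c differed by -0.38 in wildtype hearts (adjusted p = 0.21) and by 0.57 in Per2-/- hearts (adjusted p = 0.0625). Each wildtype I30R60 heart was below each wildtype I30 heart, which held for 13.7% of all genes, and each Per2-/- I30R60 heart was above each Per2-/- I30 heart, which held for 10.8%. That difference of 0.94 between the genotypes did not pass (SE 0.24, adjusted p = 0.233), and 0.0% of all genes did, with 1853 at an unadjusted limma p under 0.05.

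**Figure D3:**
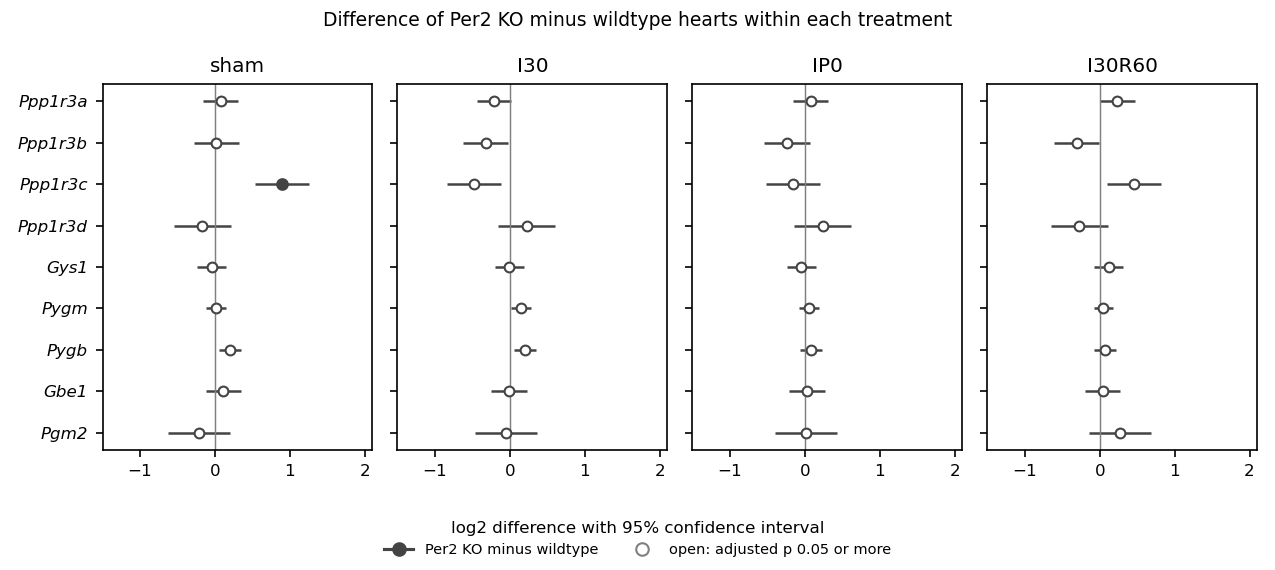
Log2 difference of Per2-/- minus wildtype hearts (horizontal axis) for the 9 genes in sham, I30, IP0 and I30R60 hearts, 1 panel each, as limma estimates with 95% confidence intervals; filled points mark an adjusted p under 0.05. Ppp1r3c in sham hearts (0.89) is the filled point, and the intervals of open points that leave out 0 are those of Pygb in sham hearts, of Ppp1r3b, Ppp1r3c, Pygm and Pygb with I30, and of Ppp1r3a, Ppp1r3b and Ppp1r3c with I30R60.

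Ppp1r3a, the large targeting subunit of striated muscle, lies on chromosome 6 from 14713822 to 14755274. Wildtype sham hearts were at 9.65, 9.92 and 9.96, and wildtype I30R60 hearts at 10.01, 10.14 and 10.03. Per2-/- sham hearts were at 9.96, 9.99 and 9.82, Per2-/- I30 hearts at 9.88, 9.90 and 9.88, and Per2-/- I30R60 hearts at 10.13, 10.49 and 10.28. In both genotypes each I30R60 heart was above each sham heart, as was so for 8.04% of all genes in wildtype and 8.32% in Per2-/- mice. Averaged over the genotypes the rise with I30R60 was 0.30 (SE 0.08, adjusted p = 0.0193). It was 0.22 in wildtype hearts (adjusted p = 0.411) and 0.38 in Per2-/- hearts (adjusted p = 0.0552), neither of them called. The averaged call was lost without wildtype sham replicate 1 (0.25, adjusted p = 0.0645) or Per2-/- I30R60 replicate 2 (0.25, adjusted p = 0.0561). Ppp1r3a was also higher in Per2-/- I30R60 than in Per2-/- I30 hearts, by 0.41 (SE 0.11, adjusted p = 0.0327). In wildtype hearts that difference was -0.03, with I30 hearts at 10.33, 10.13 and 9.82, and the difference between the genotypes of 0.45 did not pass (adjusted p = 0.37). The Per2-/- call was lost without any 1 of the 3 Per2-/- I30 hearts or without Per2-/- I30R60 replicate 2 or 3, with differences of 0.32 to 0.42 and adjusted p of 0.073 to 0.156.

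Ppp1r3b and Ppp1r3d, further targeting subunits, were not called in any comparison. Ppp1r3b, the subunit known from liver, lies on chromosome 8 from 35375694 to 35388139 and ranged from 5.13 to 5.94. Averaged over the treatments it was 0.21 lower in Per2-/- hearts (Per2-/- minus wildtype -0.21, CI -0.36 to -0.06), with an unadjusted p of 0.00823 and an adjusted p of 0.173. The smallest unadjusted p of its treatment comparisons was 0.0104, with IP0 in Per2-/- hearts (-0.41, adjusted p = 0.393), where IP0 hearts were at 5.37, 5.21 and 5.26 and sham hearts at 5.85, 5.47 and 5.75. Ppp1r3d lies on chromosome 2 from 178411206 to 178414463 and ranged from 5.91 to 7.07. Its wildtype I30 hearts were at 6.41, 6.79 and 5.91 against 6.76, 6.61 and 7.07 in sham hearts, a difference of -0.45 that did not pass (SE 0.18, adjusted p = 0.184). Over the 24 arrays Ppp1r3d and Ppp1r3c had the lowest correlation of the 36 pairs of members (r = -0.62), a description over arrays that share their groups and their normalization.

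Gys1, the muscle form of glycogen synthase, and Gbe1, the branching enzyme, stayed in narrow ranges, and neither was called in any comparison. Gys1, on chromosome 7 from 45434839 to 45456617, ranged from 9.21 to 9.62. Its means lay between 9.26 (SD 0.07) in wildtype I30R60 and 9.59 (SD 0.04) in wildtype IP0 hearts, and averaged over the genotypes it differed by 0.15 between IP0 and sham hearts (CI 0.01 to 0.29, adjusted p = 0.296). Gbe1, on chromosome 16 from 70313949 to 70569720, ranged from 8.07 to 8.72, and its group means from 8.31 (SD 0.21) in wildtype sham to 8.46 (SD 0.05) in Per2-/- IP0 hearts. Both extreme Gbe1 arrays were wildtype, sham replicate 2 and I30 replicate 1. Gys1 and Gbe1 had the highest correlation of the 36 pairs of members over the 24 arrays, r = 0.54.

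Of the phosphorylases, Pygm is the muscle form and Pygb the brain form, which heart muscle also makes. Pygm, on chromosome 19 from 6384408 to 6398464, was not called in any comparison and ranged from 11.71 to 11.995. With I30 it was at 11.81, 11.78 and 11.85 in wildtype hearts, each below the wildtype sham hearts at 11.89, 11.94 and 11.89, an order that 12.8% of all genes had. Its averaged difference with I30R60 was -0.12 (CI -0.21 to -0.03, adjusted p = 0.104). Pygb lies on chromosome 2 from 150786796 to 150831748. It was higher in Per2-/- than in wildtype hearts by 0.14 averaged over the 4 treatments (SE 0.03, 1.1-fold, adjusted p = 0.0433), and it was the 1 of 9 members called in this comparison, where 1.88% of all genes were called. Per2-/- sham hearts were at 11.58, 11.59 and 11.67 against 11.46, 11.44 and 11.35 in wildtype, a difference of 0.20 (adjusted p = 0.44). Per2-/- I30 hearts were at 11.65, 11.57 and 11.63 against 11.33, 11.43 and 11.48, also a difference of 0.20 (adjusted p = 0.225). In both of these each Per2-/- heart was above each wildtype heart, which held for 8.35% of all genes in sham and 8.21% in I30 hearts. IP0 hearts were at 11.71, 11.61 and 11.64 in Per2-/- and 11.63, 11.55 and 11.54 in wildtype mice, and I30R60 hearts at 11.57, 11.52 and 11.53 and at 11.52, 11.54 and 11.33, differences of 0.08 in each, with overlap. The averaged call stood close to the threshold: 20 of the 24 leave-one-out fits lost it, with differences of 0.12 to 0.15 and adjusted p of up to 0.0925. The 4 that kept it left out wildtype I30 replicate 3, Per2-/- I30 replicate 2, wildtype I30R60 replicate 1 or wildtype I30R60 replicate 2.

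Pgm2 lies on chromosome 5 from 64092919 to 64128355. The protein of this name acts on ribose phosphates as well as on glucose phosphates. The main phosphoglucomutase of glycogen breakdown is encoded by another gene, described below. Wildtype sham hearts were at 6.95, 6.85 and 6.72, wildtype I30 hearts at 7.01, 6.63 and 6.57, and wildtype IP0 hearts at 6.95, 6.91 and 7.04. Wildtype I30R60 hearts were at 8.14, 7.33 and 7.52, above all of these. Per2-/- sham hearts were at 6.81, 6.79 and 6.27, I30 hearts at 6.76, 6.66 and 6.66, IP0 hearts at 7.05, 6.83 and 7.06, and I30R60 hearts at 8.13, 7.46 and 8.21. The 6 hearts with reperfusion after ischemia were thus the 6 highest of the 24. How many of all genes had this order was not counted. Each I30R60 heart was above each sham heart of its genotype, as was so for 8.04% of all genes in wildtype and 8.32% in Per2-/- mice. Each was also above each I30 heart of its genotype, as was so for 10.0% and 10.8%. The step from the highest other group mean (6.98 in Per2-/- IP0) to wildtype I30R60 (7.66) was 0.68.

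Against sham hearts Pgm2 rose with I30R60 by 0.82 (SE 0.20, 1.77-fold, adjusted p = 0.0277) in wildtype and by 1.31 (SE 0.20, 2.47-fold, adjusted p = 0.000378) in Per2-/- hearts. It was the 1 of 9 members called in Per2-/- hearts with I30R60, where 4.79% of all genes were called. The difference of 0.48 between the genotypes did not pass (CI -0.10 to 1.07, adjusted p = 0.943). Against I30 hearts it rose by 0.93 (SE 0.20, adjusted p = 0.00907) in wildtype and by 1.24 (SE 0.20, adjusted p = 0.000572) in Per2-/- hearts. Without reperfusion, the I30 difference from sham was -0.10 in wildtype (CI -0.52 to 0.31) and 0.06 in Per2-/- hearts (CI -0.35 to 0.48). The wildtype rise rests on few hearts: without wildtype I30R60 replicate 1 it was 0.58 against sham (adjusted p = 0.201) and 0.69 against I30 hearts (adjusted p = 0.0626). Leaving out wildtype sham replicate 1, 2 or 3 also ended the call against sham, with rises of 0.88, 0.83 and 0.76 and adjusted p of 0.0609, 0.0735 and 0.118. The Per2-/- calls of Pgm2 held in each of the 24 leave-one-out fits.

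Neutrophil genes moved with Pgm2 in the hearts with reperfusion. The mean of 7 neutrophil genes (S100a8, S100a9, Retnlg, Csf3r, Cxcr2, Mmp8 and Ngp) was 5.65, 4.43 and 4.45 in wildtype I30R60 hearts against 3.82 to 3.90 in wildtype sham hearts. It was 5.32, 4.66 and 5.53 in Per2-/- I30R60 hearts against 3.28 to 3.68 in Per2-/- sham hearts. Of the 7 genes, 1 was called with I30R60 in wildtype and 5 in Per2-/- hearts. In each genotype the I30R60 heart of lowest Pgm2 was also that of lowest neutrophil mean. In wildtype I30 hearts, however, the neutrophil mean was 5.55, 4.33 and 3.96 while Pgm2 was at 7.01, 6.63 and 6.57, with replicate 1 just above and the others below the range of the sham hearts. The part of the neutrophil genes in the Pgm2 result was not tested.

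**Figure D4:**
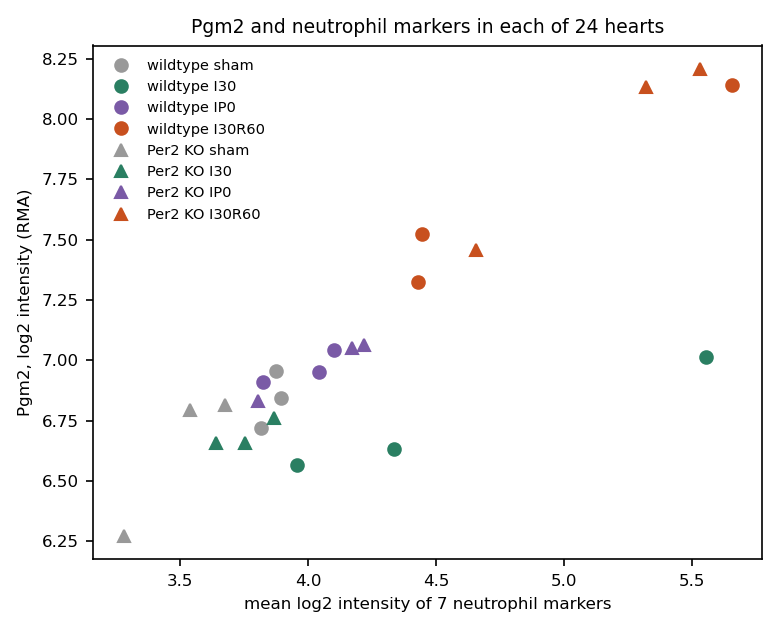
Log2 intensity of Pgm2 (vertical axis) against the mean log2 intensity of 7 neutrophil genes (horizontal axis) in the 24 arrays, 1 point per heart, with colour and shape for genotype and treatment. The 6 I30R60 hearts lie at the top (7.33 to 8.21), while wildtype I30 replicate 1 has a neutrophil mean of 5.55 with Pgm2 at 7.01.

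The symbol Pgm2 has been used for 2 genes. The gene called Pgm1 in RefSeq, which once bore the symbol Pgm2, encodes the main phosphoglucomutase of glycogen breakdown and is measured by a probe set of its own. It was singled out after its values were seen. Averaged over the genotypes, its difference between I30R60 and sham hearts was -0.18 (SE 0.06, adjusted p = 0.0578), where Pgm2 differed by 1.06 (SE 0.14, adjusted p = 3.54e-05).

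Averaged over both genotypes, Ppp1r3c was the 1 of 9 members called with I30 (0.57, SE 0.12, adjusted p = 0.0338), where 1.61% of all genes were called. It was again the 1 of 9 called with IP0 (0.81, SE 0.12, adjusted p = 0.00113), where 1.94% were called. With I30R60, Ppp1r3a, Ppp1r3c (0.66, SE 0.12, adjusted p = 0.00127) and Pgm2 were called, 3 of 9 against 9.34% of all genes. All of these calls were rises of the average. The averages of Ppp1r3c join unlike changes: 1.25 in wildtype and -0.12 in Per2-/- hearts with I30, and 1.33 and 0.29 with IP0. With I30R60 they were 0.87 and 0.45, and no Per2-/- change of Ppp1r3c was called. The averaged I30 call of Ppp1r3c was lost in 9 of the 24 leave-one-out fits, those without any 1 of the wildtype sham hearts, wildtype I30 replicate 1 or 3, Per2-/- I30 replicate 2 or 3, or Per2-/- sham replicate 1 or 3 (0.46 to 0.61, adjusted p of 0.0502 to 0.0622).

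From I30 to I30R60, Pgm2 was the 1 of 9 members called in wildtype hearts (5.49% of all genes) and the 1 of 9 called with the genotypes averaged (12.3% of all genes), and Ppp1r3a and Pgm2 were the 2 of 9 called in Per2-/- hearts (5.4% of all genes). In Per2-/- hearts no member was called with I30 or with IP0, where 0.0% and 0.159% of all genes were called. With I30 in Per2-/- hearts, 1343 genes had an unadjusted limma p under 0.05, none of them a member, and the 9 differences lay between -0.25 and 0.06. The median difference of the 9 members from sham hearts was -0.00, 0.12 and 0.05 in wildtype hearts with I30, IP0 and I30R60, and -0.03, 0.04 and -0.01 in Per2-/- hearts. The medians of all 18820 genes were 0.01, 0.00 and -0.02, and -0.01, -0.02 and -0.04. The called changes with treatment thus belonged to Ppp1r3c, Ppp1r3a and Pgm2, while 6 of the 9 members had none.

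Of 34 further symbols of glycogen metabolism and its control, 30 were measured by a probe set of their own. With I30 in wildtype hearts, 1 of 30 was called, beside 2.39% of all genes. This was Gys2, the synthase known from liver, at 2.06 (SD 0.10, n = 3) in sham and 2.56 (SD 0.23, n = 3) in I30 hearts, a difference of 0.50 (SE 0.10, adjusted p = 0.0202). Both levels lie below the median of all values, 4.44, and the files do not say whether this probe set was above background. Averaged over the genotypes, Gys2 was again the 1 of 30 called with I30 (0.33, adjusted p = 0.0383), beside 1.61% of all genes, and in Per2-/- hearts 0 of 30 were called by limma, with 2 at an unadjusted p under 0.05. With IP0, 0 of 30 were called by limma in either genotype or on average, with 8, 2 and 6 at an unadjusted p under 0.05 in wildtype hearts, in Per2-/- hearts and on average. With I30R60, 0 of 30 were called in wildtype hearts, with 3 at an unadjusted limma p under 0.05. In Per2-/- hearts 1 rose and 1 fell, 2 of 30 beside 4.79% of all genes: Ppp1r2, an inhibitor of protein phosphatase 1, by 0.31 (SE 0.09, adjusted p = 0.039), and Phka2, a regulatory subunit of phosphorylase kinase, by -0.33 (SE 0.09, adjusted p = 0.048). Averaged over the genotypes 2 of 30 were called beside 9.34% of all genes: Ppp1r2 rose by 0.25 (adjusted p = 0.00977) and Prkaa2, a catalytic subunit of AMP-activated kinase, changed by -0.18 (adjusted p = 0.0186). The median differences of the 30 genes with I30R60 were -0.04 in wildtype, -0.05 in Per2-/- hearts and -0.05 on average, beside -0.02, -0.04 and -0.03 for all genes.

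From I30 to I30R60 in Per2-/- hearts, Pgm2l1, a relative of Pgm2, rose by 0.40 (SE 0.11, adjusted p = 0.0398) and Gaa, the lysosomal enzyme that splits glycogen, changed by -0.25 (SE 0.07, adjusted p = 0.0449). Ppp1r2 rose there as well (0.32, adjusted p = 0.0301), which makes 2 rises and 1 fall among the 30, beside 5.4% of all genes. In wildtype hearts 1 of 30 was called beside 5.49% of all genes, Gys2 with a difference of -0.44 (adjusted p = 0.0162). With the genotypes averaged 5 of 30 were called beside 12.3% of all genes: Ppp1r2 (0.25) and Pgm2l1 (0.25) were higher, and Gys2 (-0.30), Prkaa2 (-0.17) and Gaa (-0.15) lower, with adjusted p of 0.00939 to 0.0481. Gaa was also the 1 of 30 called between the genotypes averaged over the treatments, beside 1.88% of all genes, and was higher in Per2-/- hearts by 0.17 (SE 0.04, adjusted p = 0.0111). No one of the 30 was called by limma between the genotypes in sham hearts, where 3 had an unadjusted p under 0.05.

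**Figure D5:**
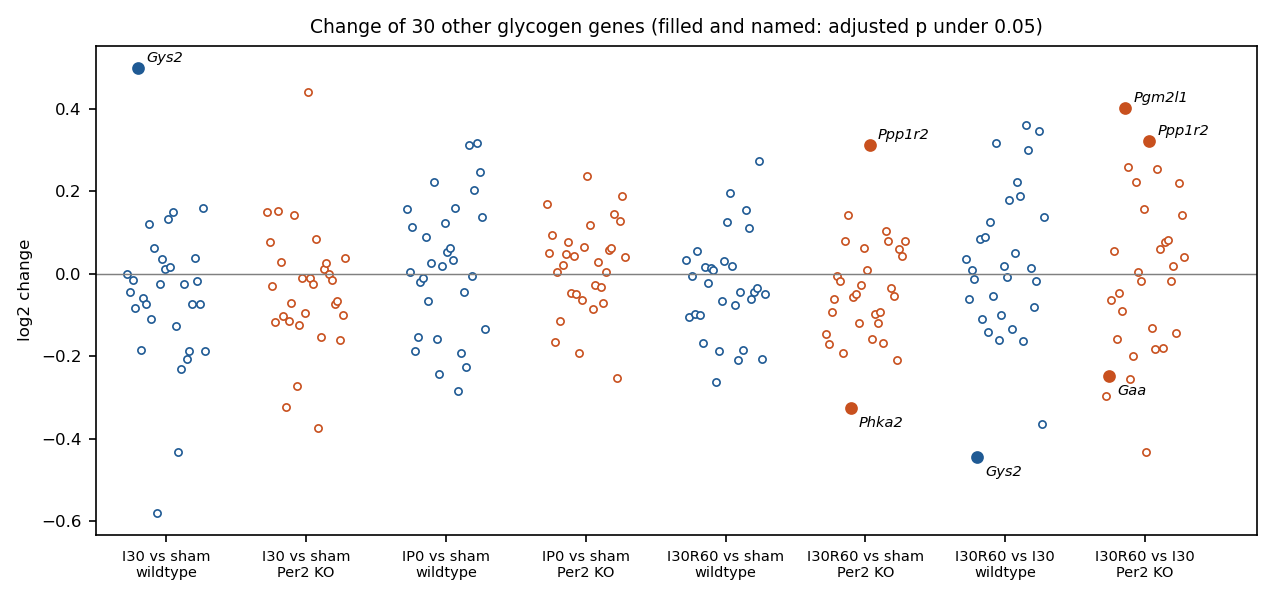
Log2 change (vertical axis) of the 30 other glycogen genes measured, in 8 columns for each treatment against sham hearts and for I30R60 against I30 hearts in wildtype and Per2-/- mice, 1 point per gene; filled and named points have an adjusted p under 0.05. Against sham hearts the filled points are Gys2 with I30 in wildtype (0.50) and Ppp1r2 (0.31) and Phka2 (-0.33) with I30R60 in Per2-/- hearts.

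The genes whose pattern over the 24 arrays was most like that of each called member were ranked by Pearson correlation over all genes, as a description over arrays that share groups, normalization and tissue. For Ppp1r3c these were Lrrc10 (r = 0.80), Tspan9 (0.75) and S1pr1 (0.74), and with the group means removed the correlations were 0.53, 0.59 and 0.55. For Pgm2 they were Adamts9 (0.96), Jmjd1c (0.95) and Litaf (0.95), with 0.87, 0.84 and 0.84 once group means were removed. For Ppp1r3a they were Pik3r1 (0.85), Entpd1 (0.83) and Fry (0.81), and for Pygb they were Osbp2 (0.88), Aplp2 (0.86) and Hrc (0.84). None of these 12 genes is among the 9 members or the 30 other glycogen genes.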

How the data were processed

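Left ventricular RNA of 24 mice was hybridized to 1 Affymetrix Mouse Gene ST array each. For 35555 probe sets the authors deposited log2 intensities, after RMA normalization with Partek software. These hold no detection calls, so it cannot be said that a gene was absent, and levels of different probe sets were not compared. The given pairing of probe sets and genes was used: 21218 probe sets have 1 symbol, 1881 several and 12456 are not listed. For the 1386 genes with several probe sets the one with the highest mean was taken, which gave 18820 genes. Symbols, positions and promoters are from RefSeq (GRCm38.p6).

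A limma 3.58.1 model (R 4.3.3) with a mean for each of the 8 groups had 16 residual degrees of freedom, with moderated variances, and p-values of each comparison were adjusted over all genes (Benjamini-Hochberg). Each p-value sets a difference of group means against the spread between single mice within groups. That spread was pooled over all 8 groups and moderated, and is not that of the compared groups alone. The number of arrays limits the precision: hearts of a group had a median SD of 0.172, and differences from sham a median SE of 0.137. Alternatives covered the arrays in the model, moderation, weights, scaling, gene and probe set choice, replicate block, the methods' t-test, thresholds, each array left out, and the 4 arrays of highest Myl7 left out. Code was tested on simulated data. The text names all 9 members, other glycogen genes where called (up to 4 a comparison by rule, with Gaa named beyond it), and up to 3 most alike genes of each called member. Members and lists were chosen with earlier results of these data known. Descriptions used Python 3.11.15, numpy 2.4.6, pandas 2.3.3 and matplotlib 3.10.9.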

Additional observations from a re-analysis of the deposited data

Results flagged for a closer look

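Pygm, the muscle phosphorylase, lay on opposite sides of the sham mean in the 2 genotypes with I30. All 3 wildtype I30 hearts were below the mean of the wildtype sham hearts (11.81, 11.78 and 11.85 against 11.91), and all 3 Per2-/- I30 hearts were above the mean of the Per2-/- sham hearts (11.995, 11.93 and 11.95 against 11.92). The Per2-/- I30 hearts overlapped the Per2-/- sham hearts, which were at 11.96, 11.98 and 11.82. The lowest of these sham hearts was replicate 3, the array of highest Myl7, and it lowers the sham mean. Per2-/- I30 replicates 2 and 3 lay below Per2-/- sham replicates 1 and 2. How many of all genes lay on opposite sides of the sham means in this way was not counted. The change was 0.13 larger in Per2-/- than in wildtype hearts, and this difference did not pass when it was tested as an interaction in limma (adjusted p = 0.804).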

How the results depend on the processing

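Changes of single members were recomputed where they were called or had an unadjusted p under 0.01, and none of these turned its direction under the alternatives. In wildtype hearts against sham, 4 calls became 9 with the methods' t-test at an unadjusted p and 0 after adjustment, and 2 to 4 with an array left out. In Per2-/- hearts 1 call became 2 with trend and robust moderation, array weights, median centring, genes above the median level or an adjusted p under 0.10, the second call being Ppp1r3a with I30R60 in each, and 4 and 0 with the unadjusted and adjusted t-test (1 to 2 with an array left out). With the genotypes averaged, 5 became 10 and 2 with the unadjusted and adjusted t-test, 3 with a minimum of 1.5-fold and 3 without the 4 arrays of highest Myl7 (3 to 5 with an array left out). For I30R60 against I30, 4 became 2 with the arrays of the compared groups alone, and 7 and 1 with the unadjusted and adjusted t-test (3 to 5). There, array weights, genes above the median level or an adjusted p under 0.10 added a call of Ppp1r3c in Per2-/- hearts. A minimum of 1.5-fold ended that of Ppp1r3a. For the interaction, 0 became 1 with array weights and 4 with the unadjusted t-test (0 to 1). Between the genotypes, 2 became 1 with the compared arrays alone, with median centring, with a minimum of 1.5-fold and with the adjusted t-test, 11 with the unadjusted t-test and 0 without the 4 arrays of highest Myl7 (0 to 2). Apart from the ranges with an array left out, counts that changed by a factor of 1.5 or less are not given. A setting not named here may thus still have gained or lost a call. Except where stated in this paragraph, the cause was not tested. With the compared arrays alone the call of Ppp1r3c in sham hearts had an adjusted p of 0.298 and that of Pgm2 with I30R60 in wildtype hearts 0.139. Without the 4 arrays of highest Myl7, which leaves 1 wildtype sham heart that is assumed to vary like the other groups, these were 0.0537 and 0.204. Quantile normalization ended the calls of Ppp1r3c with I30 averaged over genotypes (0.59, adjusted p = 0.0576) and of Ppp1r3a from I30 to I30R60 in Per2-/- hearts (0.35, adjusted p = 0.0702).

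These data do not settle whether equal replicate numbers pair the arrays. The mean correlation of deviations from group means was 0.0203 for equal numbers and -0.0101 for unequal ones. All correlations of equal numbers exceeded 0.1 in 1 of 28 group pairs. For 19 of 24 arrays, however, the closest array of another group had an equal number. With the replicate block the calls between the genotypes went from 2 to 1, Pygb being lost (adjusted p = 0.0603), and no other count changed. Centring each array on its median moved the median change of all genes from 0.01 to 0.11 with I30 in wildtype hearts and from -0.04 to -0.12 from I30 to I30R60. The wildtype I30 arrays had the narrowest spread of genes (interquartile range 3.98 to 4.07), and signal over background is not given, so it cannot be said which probe sets lay above background.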
